A study of Mus musculus with 26 samples.

Results

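Macrophages were sorted from 5 large mammary tumours of mice, each above 1000 mg by its labelled weight, and the mRNA on their polysomes was set against the total mRNA of the same cells. These tumours gave 10 of the 26 libraries of the series, 1 polysome and 1 total mRNA library each, and the other 16 libraries come from 8 small tumours of 467 to 841.8 mg. Tumours T4 (1504 mg) and T22 (1578.5 mg) belong to experimental batch 1, and tumours LR1 (1668 mg), LR2 (1734 mg) and LR3 (2245 mg) to batch 2. Every animal of both batches was a female FVB mouse, aged 5 to 7 weeks when PyMT cells, from a mammary tumour model driven by the polyoma virus middle T antigen, were injected into the mammary gland, and the labels name no other allele and no treatment. The macrophages were taken as CD11b+F4/80+Ly6G- cells in cycloheximide, a drug that holds ribosomes on the mRNA. About 10% of the cells gave total mRNA. The rest was lysed, and the parts of a sucrose gradient with mRNA on which 3 ribosomes or more sat were pooled as polysome mRNA. Both were turned into libraries with SmartSeq2, which amplifies full-length cDNA and does not mark the strand. The tumours are grafts of cultured cells and the labels give their weight but not their age, so size stands here for weight alone.

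An mRNA that is being read by several ribosomes at a time sediments as a polysome, while an mRNA that is stored, newly made or poorly initiated stays in the light part of the gradient. Initiation depends on the cap-binding protein eIF4E, which is held in check by 4E-binding proteins and is phosphorylated by the MNK kinases, and mTOR signalling controls in particular the mRNAs of ribosomal proteins and elongation factors, which start with a tract of pyrimidines and are known as TOP mRNAs. In macrophages this step lets cells change the output of cytokine, metabolic and stress genes without new transcription. A fold is given here as polysome against total mRNA on the log2 scale, so it says how a transcript's share of the polysome library compares with its share of the total library, and not how many ribosomes it carries. Within bulk samples a smaller number of cells that hold a transcript and less of the transcript per cell cannot be told apart.

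Library totals were 20418974 to 55609113 counts for total mRNA and 13045733 to 28257436 for polysome mRNA. Polysome libraries were less alike (median correlation of log2 CPM with the other polysome libraries 0.775 to 0.824) than total mRNA libraries (0.840 to 0.920, lowest in LR1). Apoe was the top gene of all 5 total mRNA libraries. Lars2 took the most in the polysome libraries of T4 (10.5%), LR1 (6.01%) and LR3 (5.47%), and Apoe in those of T22 and LR2. The 13 macrophage markers held 3.43 to 6.99% of total mRNA counts and 3.00 to 5.09% of polysome counts. Fibroblast markers held 0.0159 to 0.0667% and 0.00337 to 0.0607%, mammary epithelial markers 0.0132 to 0.0635% and 0.0114 to 0.0440%, and T and NK cell markers at most 0.0221% and 0.0112%. Neutrophil markers held 0.00623 to 0.0244% and 0.00834 to 0.0261%. Ly6g, the marker of the negative gate, and Cd3d, Cd3g and Cd8a of T cells stayed under 1 CPM in all 10 libraries. Other members of these lists passed the filter on low counts, 6 of 10 neutrophil markers and 3 of 11 T and NK cell markers (Cd4, Nkg7 and Klrb1c). Of the fibroblast markers 4 of 12 were lower in polysomes and 0 higher, and their part in the results below was not tested.

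Of 11087 genes tested, 1217 (11.0%) were higher and 1586 (14.3%) lower in polysomes (edgeR quasi-likelihood test with the tumour as a block, adjusted p below 0.05), together 25.3%. Over all tested genes the median fold was −0.18, slightly below 0. Of the 2803 called genes 2584 had the same sign in each of the 5 tumours, and 0 had opposite signs in the 2 batches. Of all tested genes 4090 had the same sign in each tumour. The test uses these same differences, so a call selects for agreement of sign, which is no separate support. The number of calls rested on single tumours. Without T4 it was 1402 (585 higher and 817 lower), and without LR2 1618 (687 and 931). In these fits, which share most libraries with the full fit, 0 of the genes called with all tumours changed sign. Taken apart within 1 fit, batch 1 (T4 and T22) had 750 genes higher (6.76%) and 1066 lower (9.61%), and batch 2 (LR1 to LR3) had 843 higher (7.60%) and 926 lower (8.35%). In both batches 724 genes were called with 1 sign and 18 with opposite signs. Across genes, the folds of single tumours correlated at Pearson r = 0.315 to 0.615 over 11087 genes, highest for T4 with T22. These genes are not independent and share libraries.

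**Figure D1:**
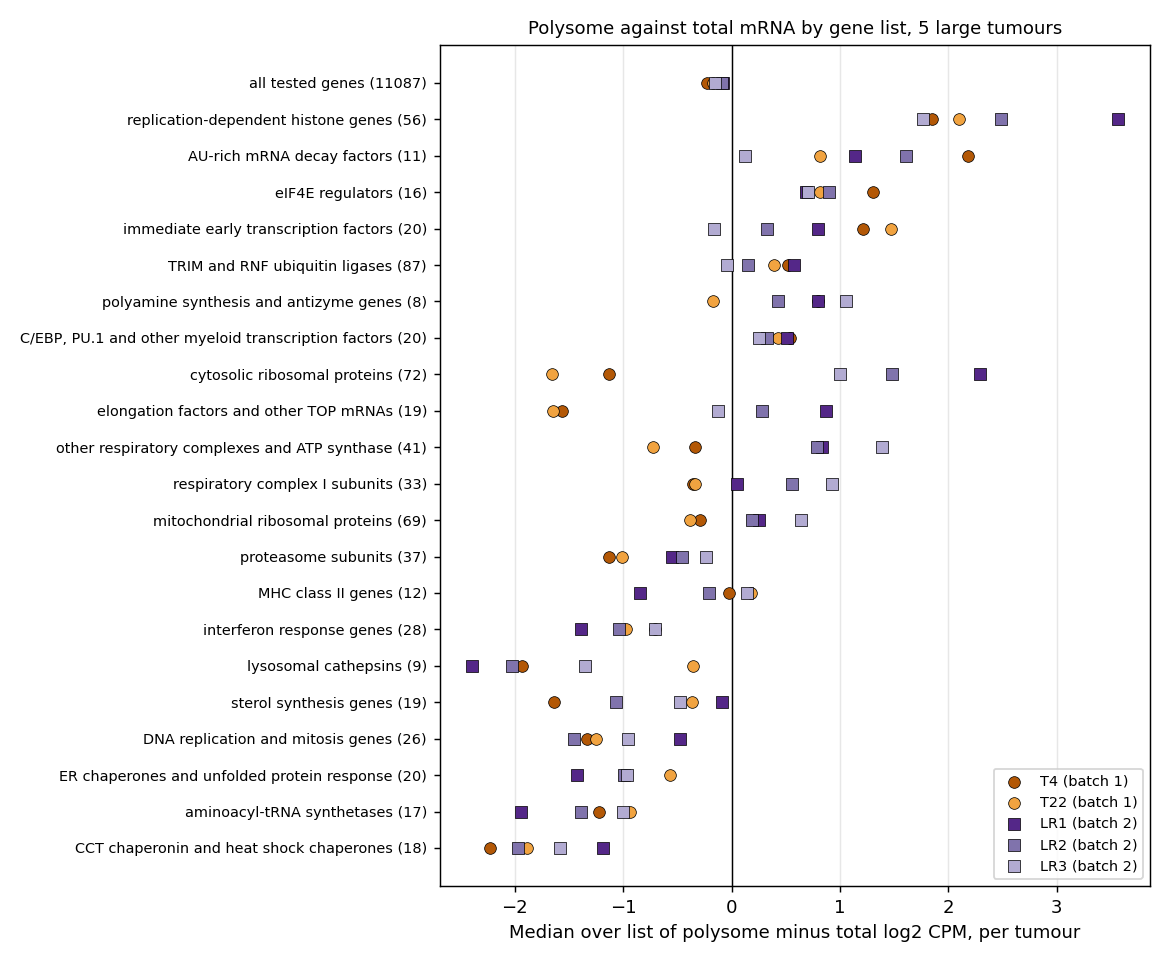
Median over the members of a gene list (number tested in brackets) of polysome minus total log2 CPM, 1 point per large tumour, circles for batch 1 and squares for batch 2. Chaperones, synthetases and replication genes lie left of 0 and histone genes right of 0 in all 5 tumours, while ribosomal proteins lie at −1.13 and −1.66 in batch 1 and at 1.00 to 2.30 in batch 2.

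Transcripts for protein folding were lower on polysomes than in total mRNA. Of 18 cytosolic and mitochondrial chaperone genes, those of the CCT chaperonin, which folds actin and tubulin, and of the heat shock families, 13 were lower and 0 higher, where 14.3% of all tested genes were lower. The median fold of the list was −1.80, and −2.23, −1.89, −1.19, −1.97 and −1.58 as the median difference in T4, T22, LR1, LR2 and LR3. Among the CCT subunits 5 of 6 were lower. Hspa8, the constitutive HSP70 that binds nascent chains (chromosome 9, 40801276 to 40805202), stood at 2421, 3154, 2285, 3177 and 1339 CPM in total mRNA of T4, T22, LR1, LR2 and LR3 and at 285, 256, 285, 480.5 and 346 CPM in their polysomes. Each polysome value lay far below every total mRNA value, and the fold was −2.88 ± 0.39 (SE, adjusted p = 0.000771). Hspa9 (−2.73 ± 0.36) and Hspd1 (−2.39 ± 0.35), the HSP70 and HSP60 of mitochondria, and the co-chaperone Dnaja1 (−2.33 ± 0.33) followed, without overlap between their 5 total and 5 polysome levels. Such a lack of overlap held for 2006 genes, 18.1% of those tested.

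Chaperones of the endoplasmic reticulum followed the same order. Of 20 genes for ER folding and the unfolded protein response 10 were lower and 1 higher (median −1.07; −0.91 in batch 1 and −1.12 in batch 2). Hspa5, the HSP70 of the ER lumen also called BiP (chromosome 2, 34772090 to 34776529), had 1174, 1469, 1121, 1679 and 713 CPM in total mRNA of T4, T22, LR1, LR2 and LR3 against 216, 423, 60.1, 92.7 and 109 CPM on polysomes. The groups did not overlap, and the polysome level of both batch 1 tumours exceeded that of the batch 2 tumours. Its fold was −3.06 ± 0.46 (SE, adjusted p = 0.00112), with −2.12 in batch 1 and −3.71 in batch 2, a difference that was not called (adjusted p = 0.345). The co-chaperone Dnajb11 (−2.35 ± 0.35) and the lectin chaperone Canx (−2.12 ± 0.36) were lower as well. Edem1, which hands misfolded glycoproteins to degradation, was the member that was higher: 55.5, 76.3, 27.3, 47.8 and 171 CPM in total mRNA and 263, 257, 294, 332 and 482 CPM on polysomes, a fold of 2.34 ± 0.39 (SE, adjusted p = 0.00173).

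Aminoacyl-tRNA synthetases, which load tRNAs with amino acids, were lower for 10 of 17 cytosolic genes and higher for 0 (median −1.31). Among all tested genes 14.3% were lower and 11.0% higher. Rars, the arginine enzyme, fell from 91.1, 119.7, 116, 105 and 59.2 CPM in T4, T22, LR1, LR2 and LR3 to 23.3, 17.6, 8.96, 18.9 and 11.4 CPM, a fold of −2.65 ± 0.38 (SE, adjusted p = 0.000874), and no polysome value reached a total mRNA value. Eprs (−2.62 ± 0.42), Nars (−2.14 ± 0.34) and Dars (−2.01 ± 0.36), for glutamate and proline, asparagine and aspartate, were also lower. Their mitochondrial relatives did not move as 1 group, with 1 of 16 higher, 3 lower and a median of −0.20; Lars2, described below, is the one that was higher. Proteasome subunits were lower for 13 of 37 and higher for 3 (median −0.51). The base ATPases Psmc6 (−2.52 ± 0.38) and Psmc2 (−2.07 ± 0.36) and the lid and base subunits Psmd6 (−1.82 ± 0.33) and Psmd1 (−2.09 ± 0.38) had the lowest p. DNA replication and mitosis genes were lower for 11 of 26 and higher for 0, and all 26 had a fold below 0 (median −1.22). Mcm6 of the replicative helicase had 115 ± 40.1 CPM in total mRNA and 14.3 ± 6.10 CPM on polysomes (SD, n = 5) and a fold of −3.07 ± 0.46 (SE, adjusted p = 0.00110). The mitotic cyclins Ccnb1 (−2.004 ± 0.39) and Ccnb2 (−2.01 ± 0.44) and the ribonucleotide reductase subunit Rrm2 (−2.85 ± 0.64) stood beside it.

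Lysosomal proteases are a large part of macrophage output. Of 9 cathepsin genes tested 5 were lower and 0 higher (median −1.62), and the 14 cathepsin rows of the tables took 2.15, 2.27, 1.69, 2.35 and 1.40% of total mRNA counts and 1.45, 1.62, 0.4998, 1.18 and 0.842% of polysome counts in T4, T22, LR1, LR2 and LR3. The polysome share was below the total share in 5 of 5 tumours, where the exact two-sided permutation test over 5 tumours cannot give a p below 0.0625, the value found (0.158 after Benjamini-Hochberg adjustment over the 53 shares computed). Ctsc, which activates granule proteases, was at 3755, 4168, 2785, 5017 and 2151 CPM in total mRNA and 986, 1372, 785, 1079 and 844 CPM on polysomes. These levels did not overlap, and the fold was −1.79 ± 0.35 (SE, adjusted p = 0.00371). Ctsl (−2.19 ± 0.40) and Ctso (−2.87 ± 0.35) were lower too. The other lysosomal hydrolases and membrane proteins were split, with 7 of 27 lower (25.9%), 2 higher (7.41%) and a median of −0.37. Among them Asah1, acid ceramidase (chromosome 8, 41340646 to 41397644), fell from 529, 692, 1036, 714 and 352 CPM to 38.4, 40.5, 25.8, 84.9 and 50.2 CPM, a fold of −3.80 ± 0.45 (SE, adjusted p = 0.000501), and the mannosidases Manba (−2.81 ± 0.44) and Man2b1 (−2.49 ± 0.44) were lower. Ids, which removes sulfate from glycosaminoglycans, went the other way: 42.8, 24.2, 34.8, 22.7 and 76.9 CPM in total mRNA and 236, 182, 416, 366 and 542 CPM on polysomes gave 3.15 ± 0.38 (SE, adjusted p = 0.000501). Of the vacuolar proton pump, which acidifies lysosomes, 5 of 20 subunits were lower (25%, against 14.3% of all tested genes) and 1 higher (5%). The accessory subunit Atp6ap2 had −2.92 ± 0.37.

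Interferon response genes were lower for 9 of 28 (32.1%) and higher for 1 (3.57%), where 14.3% of all tested genes were lower and 11.0% higher. Their median was −0.76. The guanylate-binding proteins Gbp3 (−3.02 ± 0.37), Gbp2 (−2.51 ± 0.37) and Gbp7 (−2.42 ± 0.43), which attack vacuoles of pathogens, and Ifit3 (−3.22 ± 0.65), of the family that binds viral RNA, led them. Gbp3 had 138, 62.5, 96.5, 109 and 43.1 CPM in total mRNA of T4, T22, LR1, LR2 and LR3 and 18.4, 12.9, 13.9, 8.26 and 4.06 CPM on polysomes, with no overlap. Sterol synthesis genes were lower for 5 of 19 and higher for 1 (median −0.67), with Cyp51 at −2.94 ± 0.54, Msmo1 at −2.23 ± 0.41 and Nsdhl at −3.72 ± 0.66, which act in turn on lanosterol and its products.

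**Figure D2:**
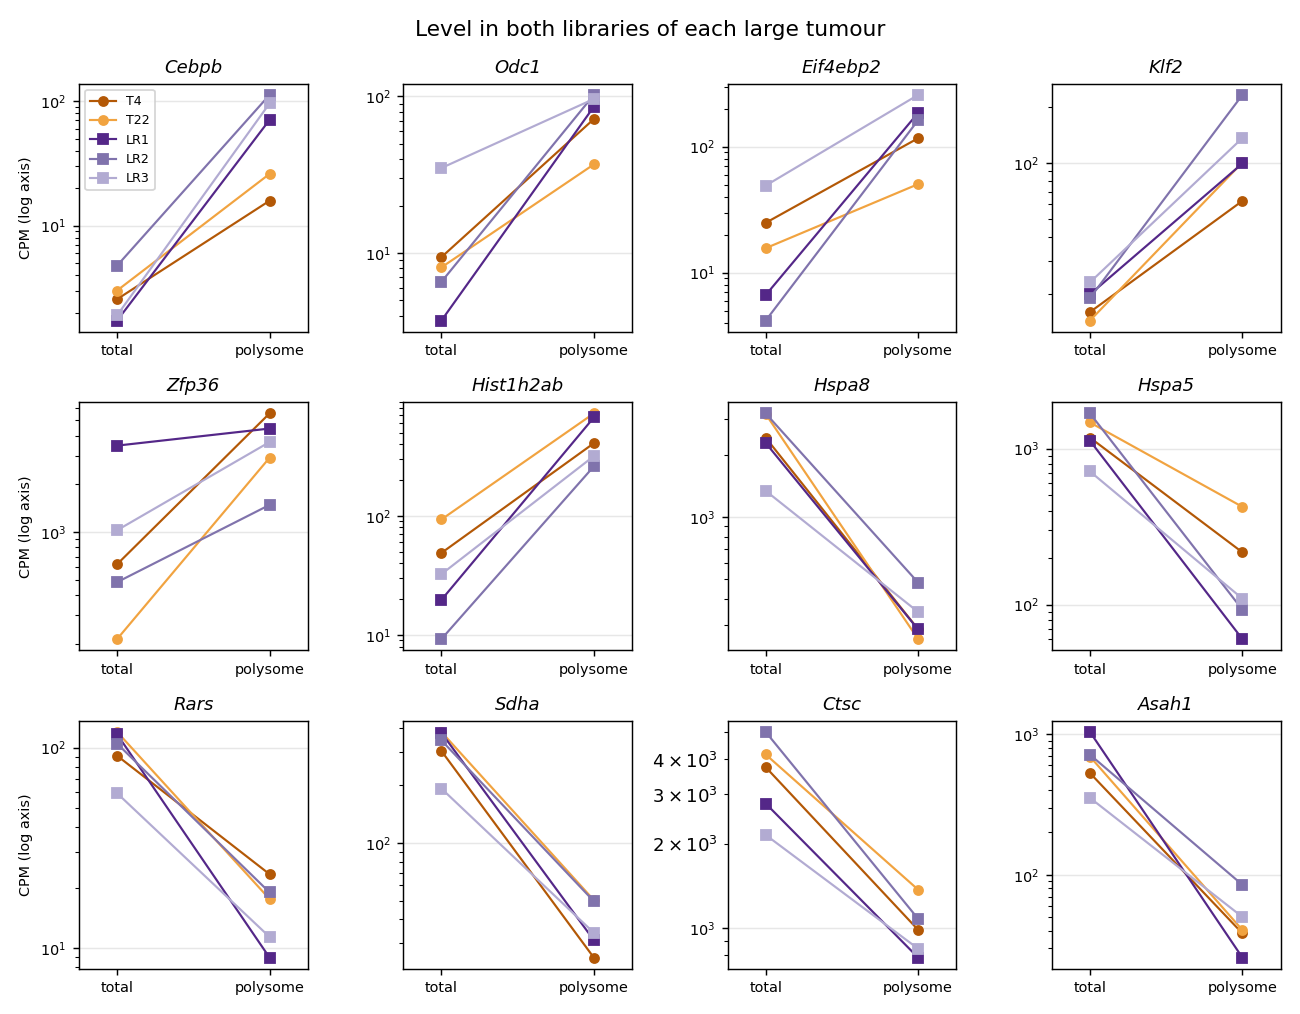
TMM-scaled CPM (log axis) of 12 genes in the total mRNA and polysome library of each large tumour, 1 line per tumour, circles for batch 1 and squares for batch 2. Lines of Cebpb, Odc1, Eif4ebp2, Klf2, Zfp36 and Hist1h2ab rise and those of the other 6 genes fall in all 5 tumours. The flattest rise is that of Zfp36 in LR1.

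Replication-dependent histone genes formed the list with the most members higher. Their mRNAs end in a stem-loop in place of a poly(A) tail. Of 56 tested genes 37 were higher and 0 lower, where 11.0% of all tested genes were higher, and the median fold was 2.29, with 1.99 in batch 1 and 2.57 in batch 2. Their share of counts was 0.0995, 0.131, 0.0247, 0.0278 and 0.0735% of total mRNA in T4, T22, LR1, LR2 and LR3 and 0.470, 0.668, 0.570, 0.256 and 0.311% of polysome mRNA. Each polysome share exceeded every total share, and LR1 and LR2 had the lowest shares in total mRNA. Hist1h2ab, an H2A gene, had 48.9, 93.4, 19.7, 9.24 and 32.4 CPM in total mRNA and 408, 726, 671, 261 and 318 CPM on polysomes, a fold of 3.83 ± 0.46 (SE, adjusted p = 0.000501). Hist1h2ah (3.82 ± 0.42), Hist1h2ai (3.79 ± 0.45) and Hist3h2a (3.03 ± 0.34) were close to it. These genes have near-identical copies, so reads may be divided among them in a way that makes single values uncertain. The direction goes opposite to that of the other replication genes above, and the share of RNA without a poly(A) tail in each kind of library was not tested.

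Transcription factors of the myeloid lineage were higher for 6 of 20 (30%) and lower for 0, where 11.0% of all tested genes were higher. Their median was 0.23. Cebpb, which drives inflammatory and suppressive programmes in myeloid cells (chromosome 2, 167688915 to 167690432), had 2.56, 3.01, 1.73, 4.77 and 1.90 CPM in total mRNA of T4, T22, LR1, LR2 and LR3 and 15.8, 26.03, 70.7, 112 and 95.9 CPM on polysomes. Total levels of the batches overlapped, while polysome levels of the 3 batch 2 tumours were above those of batch 1. The fold was 4.28 ± 0.55 (SE, adjusted p = 0.000559), with 2.87 in batch 1 and 5.18 in batch 2, and this difference was not called (adjusted p = 0.216). Its relative Cebpa (2.53 ± 0.40), the macrophage factor Maf (1.68 ± 0.33) and Tfe3 (1.88 ± 0.38), which acts on lysosomal genes, were higher in each tumour. Immediate early transcription factors, which respond first to a stimulus, were higher for 5 of 20 (25%) and lower for 0. Their median was 0.68, with 1.26 in batch 1 and 0.18 in batch 2. Klf2, a factor that restrains macrophage activation, rose from 15.95, 14.4, 19.8, 18.96 and 22.99 CPM to 62.6, 101, 99.3, 231 and 136 CPM, a fold of 2.65 ± 0.37 (SE, adjusted p = 0.000874). Jund, of the AP-1 family, had 2.48 ± 0.54 (SE, adjusted p = 0.00591), with levels in T22 (6.70 and 7.96 CPM) that differed little.

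Factors that destroy mRNAs with AU-rich or stem-loop elements were higher for 5 of 11 and lower for 0 (median 1.09). Zfp36, or tristetraprolin, which shortens the life of cytokine mRNAs (chromosome 7, 28376784 to 28379228), had 627, 213, 3468, 485 and 1024 CPM in total mRNA of T4, T22, LR1, LR2 and LR3 and 5516, 2912, 4436, 1475 and 3651 CPM on polysomes. Every tumour rose, by little in LR1, whose total mRNA already held more than the polysomes of T22 and LR2. The fold was 2.14 ± 0.51 (SE, adjusted p = 0.00933), and without T4 it was 1.86 and was no longer called (adjusted p = 0.0576). Its relative Zfp36l2 (2.03 ± 0.47) and the endonuclease Zc3h12a (1.96 ± 0.42) were higher. Of TRIM and RNF ubiquitin ligases 24 of 87 were higher (27.6%) and 13 lower (14.9%), with a median of 0.57. Trim41 (2.44 ± 0.38), Rnf166 (2.35 ± 0.34) and Rnf141 (2.21 ± 0.34) were among those of lowest p. Chromatin enzymes were higher for 8 of 39 (20.5%) and lower for 1 (2.56%). Their median was 0.57, with 0.93 in batch 1 and 0.13 in batch 2. The histone H3 lysine methyltransferases Setd1a (2.64 ± 0.47) and Kmt2b (2.005 ± 0.45) were higher, and the deacetylase Hdac1 (−2.07 ± 0.35) was lower. Zinc finger protein genes, mostly putative transcription factors, were lower for 52 of 313 (16.6%) and higher for 25 (7.99%), near the 14.3% and 11.0% of all tested genes, with a median of −0.87 and members from Zfp362 at 2.87 ± 0.48 to Zfp263 at −2.12 ± 0.39. SR and hnRNP splicing factors were higher for 5 of 28 (17.9%) and lower for 8 (28.6%). Hnrnpl had 2.85 ± 0.43, Hnrnpf −2.28 ± 0.35 and Hnrnpk −1.999 ± 0.35.

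Transcripts for regulators of the cap-binding step did not move as 1 group, and the step itself was not measured. Of 16 genes that regulate eIF4E 5 were higher (31.25%) and 2 lower (12.5%), against 11.0% and 14.3% of all tested genes. Their median was 1.04. Eif4ebp2, a repressor that binds eIF4E (chromosome 10, 61428491 to 61452790), had 24.9, 15.6, 6.64, 4.17 and 49.1 CPM in total mRNA of T4, T22, LR1, LR2 and LR3 and 117, 50.4, 185, 162 and 257 CPM on polysomes. LR1 and LR2 had the lowest total levels, LR3 the highest of both kinds, and the fold was 3.23 ± 0.58 (SE, adjusted p = 0.00227). Mknk2, a kinase that phosphorylates eIF4E, was higher (22.2 ± 13.001 CPM in total mRNA and 84.3 ± 20.2 CPM on polysomes, SD, n = 5; fold 2.17 ± 0.43), as was the kinase Akt1 (1.53 ± 0.33), while the S6 kinase Rps6kb1 was lower (−2.26 ± 0.43). Eif4e itself had 115, 147, 135, 184 and 95.6 CPM in total mRNA and 22.6, 14.5, 135, 92.1 and 85.7 CPM on polysomes. Its polysome level was low in T4 and T22 and close to the total level in LR1 and LR3, and the fold of −1.33 ± 0.50 did not pass (adjusted p = 0.0667; −1.64 and 0.0316 without LR1, −0.79 without T22), while DESeq2 (adjusted p = 0.0203) and voom (0.0302) called it. Mknk1 had −0.88 ± 0.39 (adjusted p = 0.109, and 0.0324 without LR1). Among 19 mRNAs named as sensitive to eIF4E, 5 were higher (26.3%) and 1 lower (5.26%), with a median of 0.14. Odc1, ornithine decarboxylase, the first enzyme of polyamine synthesis (chromosome 12, 17544808 to 17551502), rose from 9.43, 8.12, 3.72, 6.56 and 34.9 CPM to 71.7, 36.8, 85.9, 102 and 96.3 CPM, a fold of 3.01 ± 0.49 (SE, adjusted p = 0.00149), and the survival kinase Pim1 had 2.38 ± 0.46. Translation initiation factors had 4 of 28 lower, the same share as the 14.3% of all tested genes, and 1 higher, with the alpha subunit of eIF2, Eif2s1, at −2.21 ± 0.47 and the eIF3 subunit Eif3a at −1.62 ± 0.37.

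Genes of the macrophage phenotype did not go 1 way. Cytokines and chemokines were higher for 6 of 30 (20%) and lower for 3 (10%), where 11.0% of all tested genes were higher and 14.3% lower. Tgfb1, an immunosuppressive cytokine, had 7.48, 3.28, 31.6, 1.33 and 44.3 CPM in total mRNA of T4, T22, LR1, LR2 and LR3 and 59.6, 50.04, 87.7, 78.9 and 154 CPM on polysomes, a fold of 3.13 ± 0.60 (SE, adjusted p = 0.00315). Vegfb (2.84 ± 0.53), a growth factor of vessels, the inflammatory cytokine Tnf (1.54 ± 0.37) and the chemokine Ccl6 (2.17 ± 0.45) were higher. Spp1, osteopontin, was lower, from 968, 3203, 2851, 4103 and 1151 CPM to 339, 1672, 237, 669 and 178 CPM (fold −2.27 ± 0.45; −1.23 in batch 1 and −2.97 in batch 2). The chemokine receptor Ccr2, which marks recruited monocytes, was lower (−2.91 ± 0.45; 240.2 ± 114 CPM in total mRNA and 38.1 ± 24.9 CPM on polysomes, SD, n = 5). Pro-inflammatory markers were higher for 3 of 14 (21.4%) and lower for 4 (28.6%), with Cd40 at 1.79 ± 0.37 and Cd86, another co-stimulator, at −2.27 ± 0.44. Alternative activation markers were higher for 1 of 17 (5.88%), the secreted protein gene Retnla (2.42 ± 0.45, adjusted p = 0.0749 without the tumour as a block), and lower for 3 (17.6%). Chil3, a chitinase-like protein (chromosome 3, 106147554 to 106167564), had 6.95, 8.07, 55.9, 40.2 and 59.8 CPM in total mRNA and 0, 0.0632, 0, 1.61 and 6.22 CPM on polysomes. With polysome levels at or near 0 in T4, T22 and LR1, its fitted fold (−5.84 ± 0.94) depends on the prior count of the fit. In the panel of phenotype genes, Hif1a was lower (−1.35 ± 0.36; −1.44 and an adjusted p of 0.0525 without T4). Vegfa (1.71, adjusted p = 0.0795, and 0.0341 without LR1), Mrc1 (−0.99, 0.0679, and 0.0474 without T22) and Arg1 (−0.82, 0.310, and 0.0303 with a fold of −1.36 without LR1, −0.32 without LR2) did not pass with all tumours, though DESeq2 and voom called Vegfa (adjusted p = 0.00670 and 0.0444) and Mrc1 (0.0283 and 0.0355). MHC class II genes were called in neither direction (0 of 12, median −0.12). Toll-like receptor genes had 3 of 19 higher (15.8%), with the adaptor Myd88 at 1.45 ± 0.35 (1.40 and an adjusted p of 0.0538 without T4), and 4 lower (21.1%).

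Members of 1 mitochondrial complex went opposite ways. Succinate dehydrogenase joins the citric acid cycle to the respiratory chain. Its catalytic subunit Sdha (chromosome 13, 74322255 to 74350240) had 303, 381, 377, 345 and 193 CPM in total mRNA of T4, T22, LR1, LR2 and LR3 and 25.2, 50.3, 31.1, 49.6 and 33.9 CPM on polysomes, a fold of −3.08 ± 0.36 (SE, adjusted p = 0.000501) with no overlap. Its membrane anchor Sdhc had 122, 129, 49.3, 192 and 123 CPM and 434, 589, 580.4, 371 and 328 CPM, which also did not overlap, and a fold of 1.97 ± 0.42 (SE, adjusted p = 0.00570). In the list of complexes II to V 7 of 41 were higher (17.1%) and 1 lower (2.44%), with Cox6a1 of cytochrome oxidase at 1.97 ± 0.39. In complex I 5 of 33 were higher (15.2%) and 1 lower (3.03%), with Ndufa7 at 1.33 ± 0.34 and the iron-sulfur subunit Ndufs1 at −2.37 ± 0.38. Among all tested genes 11.0% were higher and 14.3% lower. Mitochondrial ribosomal proteins had 6 of 69 higher and 4 lower, shares below those of all tested genes. Gpx1, the main glutathione peroxidase and a selenoprotein, was higher (1458 ± 376 CPM in total mRNA and 5735 ± 2039 CPM on polysomes, SD, n = 5; fold 1.94 ± 0.39).

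Of the genes with the largest folds, Lars2, mitochondrial leucyl-tRNA synthetase (chromosome 9, 123366927 to 123462675), stood first. It had 6602, 5017, 48.4, 495 and 4353 CPM in total mRNA of T4, T22, LR1, LR2 and LR3 and 112999, 62814, 57474, 20621 and 52939 CPM on polysomes. LR1 had by far the lowest total level and LR2 the lowest polysome level, and the fold was 4.91 ± 0.85 (SE, adjusted p = 0.00204). Whether all reads counted for Lars2 come from its mRNA was not tested. Erf, a repressor of the ETS family, had 6.61, 7.12, 2.76, 2.89 and 13.7 CPM and 68.2, 78.5, 60.7, 53.9 and 68.7 CPM, a fold of 3.57 ± 0.43 (SE, adjusted p = 0.000501), with an even polysome level across tumours. The kinase Uhmk1 (4.04 ± 0.77), the Wnt co-receptor Lrp5 (3.89 ± 0.73) and the chloride channel Ttyh3 (3.55 ± 0.42) were also higher in 5 of 5. At the other end, Acta1, skeletal muscle actin (chromosome 8, 123891758 to 123894775), had 165, 108, 347, 79.2 and 188 CPM in total mRNA and 1.82, 1.33, 0.896, 75.8 and 0.676 CPM on polysomes. In LR2 the levels were nearly equal, in the other 4 tumours the polysome level was at most 1.82 CPM, and the fold was −6.46 ± 1.14 (SE, adjusted p = 0.00221). Pcca, a subunit of propionyl-CoA carboxylase, was at 0 CPM in the polysomes of LR1 and LR3, so its fold (−4.54 ± 1.04) also depends on the prior count. The receptor gene Gpr171 (−4.08 ± 0.61), the ubiquitin ligase scaffold Cul2 (−3.94 ± 0.59), protein S (Pros1, −3.85 ± 0.45), the scavenger receptor Colec12 (−3.77 ± 0.54) and the glycogen phosphorylase Pygl (−3.75 ± 0.71) were lower in 5 of 5 tumours.

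The batches parted at the transcripts of ribosomal proteins. Ribosomal protein genes encode the cytosolic ribosome, and most of their mRNAs belong to the TOP class. Of 72 tested genes 25 were lower and 0 higher in batch 1 (median −1.37), and 47 were higher and 0 lower in batch 2 (median 1.63). The pattern of a fold below 0 in T4 and T22 and above 0 in LR1, LR2 and LR3 held for 58 of 72 members, against 379 of all 11087 tested genes. In the pooled comparison 1 of 72 was called, Rps14 of the small subunit (1.54 ± 0.49), and it was not called without LR1 (adjusted p = 0.0705), LR2 (0.134) or LR3 (0.120). The RefSeq sequence around the annotated start of 4 members with a large difference between batches is shown for comparison, with 15 bases before and 15 from the start, and with capitals for a tract that opens with C at the start and goes on in pyrimidines:
Rps15a (GRCm38.p6, chr7:118116133-118116162, minus strand): ctctctttctgccatCTTCCCTCgccggtg
Rpl35a (GRCm38.p6, chr16:33056467-33056496, plus strand): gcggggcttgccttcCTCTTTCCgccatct
Rpl41 (GRCm38.p6, chr10:128549154-128549183, minus strand): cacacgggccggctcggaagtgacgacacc
Rpl39 (GRCm38.p6, chrX:37085208-37085237, minus strand): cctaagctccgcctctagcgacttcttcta
In Rps15a and Rpl35a (the entry of 3 that has the tract) the annotated start opens the tract, and in Rpl41 and Rpl39 the base at the annotated start is not followed by 4 pyrimidines after a C. Searched as C followed by 4 bases that are each C or T, on the strand of the gene at the annotated start, the motif was found for 13 of 53 ribosomal protein genes with an entry (24.5%), for 231 of 8068 tested genes (2.86%) and for 813 of all 27025 genes with an entry (3.01%). Of the 25 genes called for the difference between batches, 17 had an entry and 2 of these had the motif (11.8%). An annotated start a few bases from the true one hides a tract, so the letters describe these windows only.

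Rpl41, the smallest ribosomal protein, had 795, 671, 303, 369.8 and 614 CPM in total mRNA of T4, T22, LR1, LR2 and LR3 and 211, 101, 2812, 2307 and 2799.7 CPM on polysomes. Polysome levels were below total levels in T4 and T22 and several times above them in the batch 2 tumours. The fold was −2.32 in batch 1 and 2.68 in batch 2, a difference of 5.004 ± 0.65 (SE, adjusted p = 0.0137). Rps15a moved from 268, 203, 86.4, 110.1 and 293 CPM to 70.7, 31.5, 598, 622 and 628 CPM, so that its polysome level was 31.5 to 70.7 CPM in batch 1 and 598 to 628 CPM in batch 2; the difference was 4.44 ± 0.70 (SE, adjusted p = 0.0428). For Rpl39 the difference was 5.61 ± 0.93 (SE, adjusted p = 0.0428), for Rps7 4.55 ± 0.73 (SE, adjusted p = 0.0428) and for Rpl35a 4.14 ± 0.71 (SE, adjusted p = 0.0428). Rpl22l1, Rps24, Rps20, Rpl37a and Rps27l, the other genes of largest difference, lay between 4.06 and 5.69. In all, 25 of 11087 genes differed between batches (0.225%), each with the higher fold in batch 2, and 20 of these 25 rows name a ribosomal protein gene, 4 of them joined with an overlapping or similar gene. The others, picked out after their values were seen, were Tmsb4x, thymosin beta 4, which binds actin, with a difference of 3.84 ± 0.70 (SE, adjusted p = 0.0490), Sec61g of the ER translocon with 3.27 ± 0.61 (SE, adjusted p = 0.0494), Vma21, which assembles the proton pump, with 3.57 ± 0.66 (SE, adjusted p = 0.0490), Tmem167 with 3.65 ± 0.68 (SE, adjusted p = 0.0494), and the predicted gene Gm20594. These calls rest on both batch 1 tumours: without T4 or without T22, when batch 1 is 1 tumour assumed to vary like the others, 0 genes were called (lowest adjusted p 0.1007 and 0.3556), while the difference of Rpl41 was 5.41 and 4.61. Without LR2 9 genes were called and without LR1 230. DESeq2 called 515 and voom 61.

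The share of all counts in ribosomal protein genes was 3.37, 2.95, 1.06, 2.07 and 3.88% of total mRNA in T4, T22, LR1, LR2 and LR3 and 1.53, 0.893, 5.80, 6.09 and 6.45% of polysome mRNA. It was below the total share in both batch 1 tumours and above it in all 3 batch 2 tumours, and LR1 combined the lowest total share with a polysome share close to the other batch 2 tumours. Elongation factors and other TOP mRNAs had 11 of 19 lower in batch 1 (median fold −1.64) and 2 higher and 1 lower in batch 2 (median 0.39), where 7.60% of all tested genes were higher in that batch. The batch difference itself was called by edgeR for 0 of these 19 (13 at an unadjusted p below 0.05, with 9 called by DESeq2 and 3 by voom). Complexes II to V of the respiratory chain had 2 higher and 5 lower of 41 in batch 1 (median −0.47) and 15 higher and 1 lower in batch 2 (median 1.07), and their share of counts was 0.907, 1.01, 0.875, 0.955 and 0.815% of total and 0.763, 0.815, 1.60, 1.60 and 1.51% of polysome mRNA. Their batch difference was called by edgeR for 0 of 41 (19 at an unadjusted p below 0.05, with 9 called by DESeq2 and 2 by voom). With the trend on GC content and coding length described below removed, their medians were 0.09 in batch 1 and 0.19 in batch 2. Chaperones (−2.02 and −1.69), synthetases (−1.07 and −1.48) and histone genes had medians of 1 sign in both batches. Total mRNA libraries held 22153830 and 20686329 counts in T4 and T22, and 49733409, 55609113 and 20418974 in LR1, LR2 and LR3. Counts thinned to 1 depth called 28 genes for the batch difference, and its cause was not tested.

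**Figure D3:**
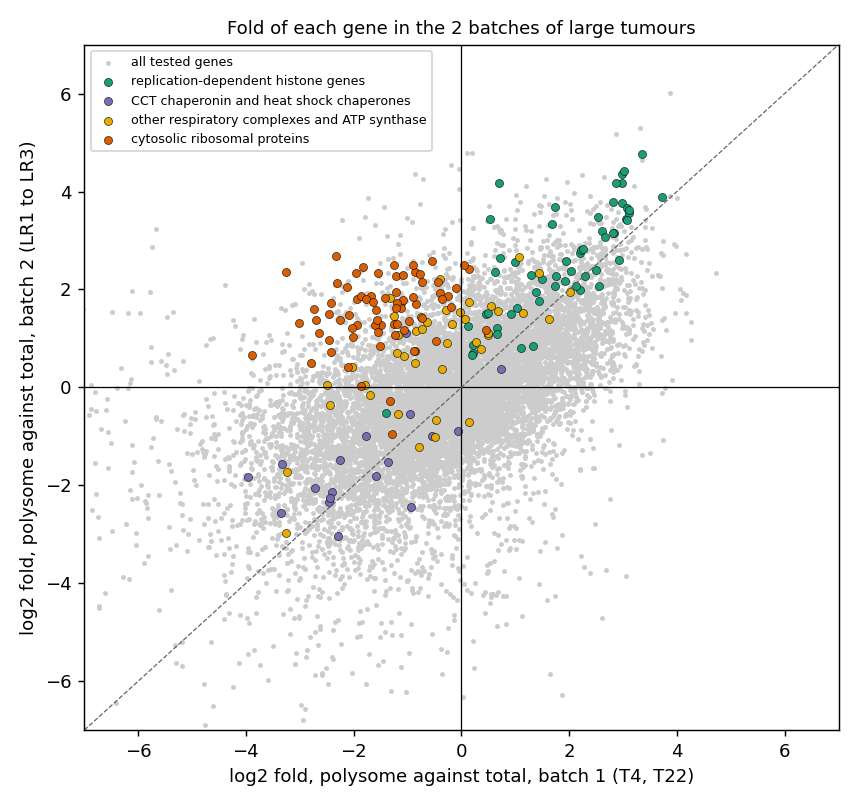
Log2 fold of each tested gene, polysome against total mRNA, in batch 1 (x axis; T4, T22) and batch 2 (y axis; LR1 to LR3), with members of 4 lists in colour, the dashed line at equal folds and 133 genes beyond the axes left out. Most ribosomal proteins lie at the upper left, below 0 in batch 1 and above 0 in batch 2, while histone genes lie upper right and chaperones lower left.

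**Figure D4:**
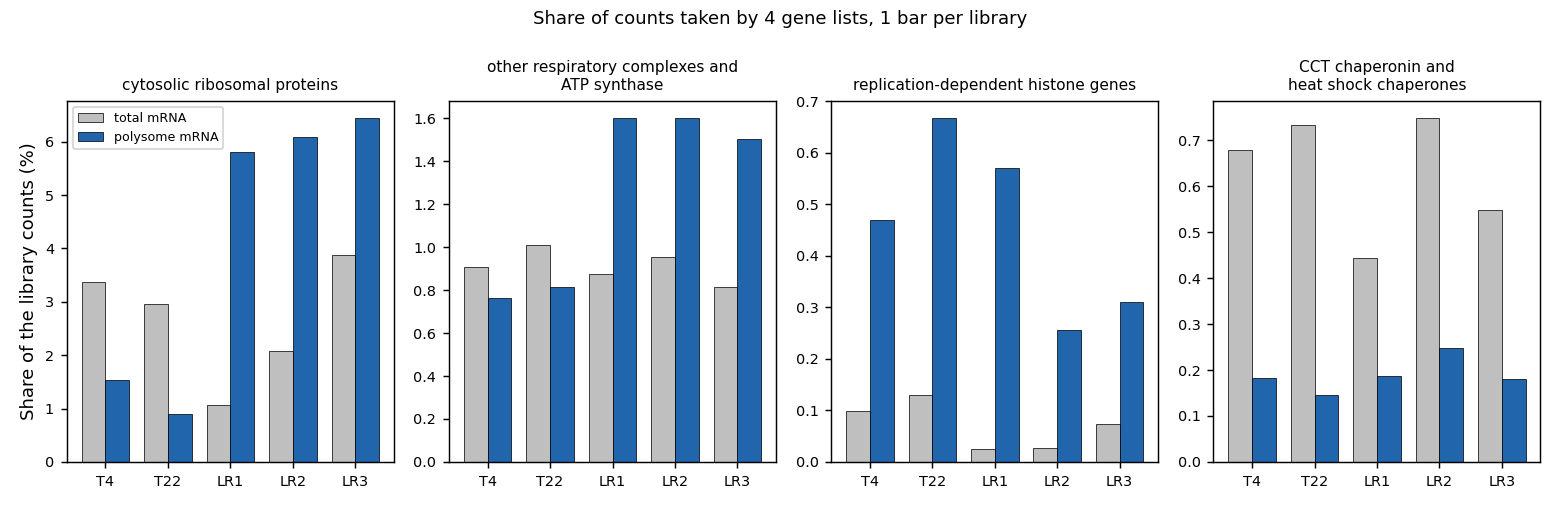
Share of a library's counts (%) in the genes of 4 lists, 1 bar per library, grey for total mRNA and blue for polysome mRNA of each large tumour. The ribosomal protein bars of polysomes are below 2% in T4 and T22 and above 5% in LR1, LR2 and LR3.

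The fold also moved with the make-up of the transcripts. With GC content and length taken from the GENCODE M21 annotation (GRCm38) for 10108 of the 11087 genes (91.2%), the fold had a Spearman correlation of 0.44 with GC percent across genes, and 0.35, 0.49, 0.14, 0.39 and 0.36 in T4, T22, LR1, LR2 and LR3. Genes under 42% GC had a median fold of −1.32 (2.30% of them higher and 33.6% lower), and genes at 58% or more a median of 0.84 (26.4% higher and 0.751% lower). Coding length had a correlation of −0.03 with the pooled fold, of 0.18 in batch 1, −0.19 in batch 2 and −0.43 with the difference between batches. Genes with a coding length under 500 bases stood at a median fold of −0.70 in T4 and T22 and at 0.58 in LR1 to LR3. These are descriptions over genes that share libraries and amplification. With a smooth trend on both measures taken out of the fold, list medians became −1.28 for chaperones, −0.91 for synthetases, 1.48 for histone genes, −1.13 for cathepsins and 1.68 for mRNA decay factors. Medians shrank by over 1.5 times for proteasome subunits (−0.51 to −0.24), interferon response genes (−0.76 to −0.41), initiation factors (−0.54 to −0.13), chromatin enzymes (0.57 to 0.24), the vacuolar proton pump (−0.67 to −0.37), complexes II to V (0.43 to 0.11) and, from 2.29, for histone genes. The same held for elongation factors and other TOP mRNAs (−0.59 to −0.29), pro-inflammatory markers (−0.66 to −0.14) and alternative activation markers (−0.58 to −0.27). Zinc finger genes, of which the median member has 44.7% GC, went from −0.87 to −0.06, and splicing factors from −0.89 to 0.09. Over the 71 members with values, ribosomal proteins kept opposite medians, but these shrank as well. They went from −1.33 to −0.84 in batch 1 and from 1.63 to 1.04 in batch 2. The median difference between the batches went from 3.03 to 1.90.

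**Figure D5:**
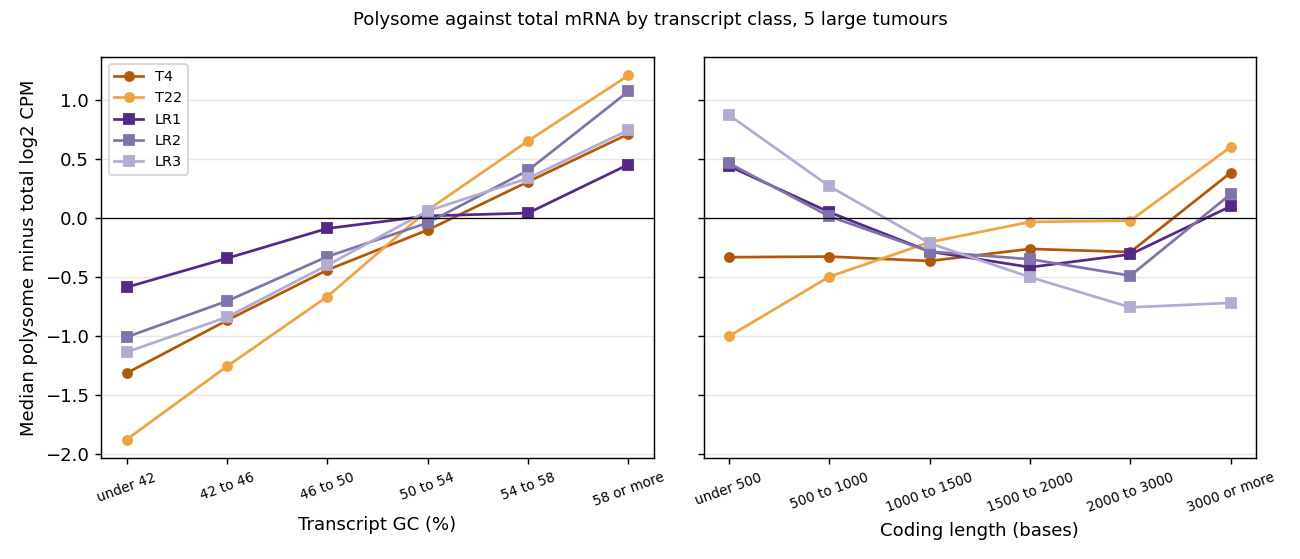
Median polysome minus total log2 CPM of genes in classes of transcript GC content (left, %) and coding length (right, bases), 1 line per large tumour, circles for batch 1 and squares for batch 2. All 5 lines rise with GC content, while short coding sequences lie below 0 in T4 and T22 and above 0 in LR1, LR2 and LR3.

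Whether large tumours differ from small ones in these folds was tested in a fit to all 26 libraries that blocks on the tumour and lets the fold differ by batch. Of 12109 genes 0 were called (0%; edgeR, the lowest adjusted p being 0.279), and 1385 had an unadjusted p below 0.05 (747 with the higher fold in large tumours and 638 with the lower), DESeq2 called 129 and voom 0. On simulated counts of this design 62% of changes of 2 on the log2 scale were found, all placed in genes averaging 10 CPM or more. The genes of lowest p were B4gat1, a glycosyltransferase (large minus small 3.04 ± 0.62, SE), Commd2 (2.10 ± 0.44), Ndufb5 of complex I (1.84 ± 0.39), Ap3s1 of an adaptor complex (2.20 ± 0.47) and Selk, an ER selenoprotein (1.82 ± 0.42), with values above 0. Those below 0 were Spcs3 of the signal peptidase (−1.55 ± 0.38), the peptidase Tpp2 (−1.60 ± 0.40), the factors Atf1 (−1.60 ± 0.41) and Zfp263 (−1.94 ± 0.50) and Ccr2 (−1.56 ± 0.41). The folds described for large tumours are thus not shown to be particular to them.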

How the data were processed

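RNA-seq gene counts of polysome and total mRNA libraries were used for the 5 large tumours, and for all 26 libraries in the comparison with small tumours. The authors deposited, for each library, counts per gene and a log2 column, which equalled log2 of the library-scaled counts with an offset of 0.5, as checked on the files. The submitters' processing notes name HISAT, HISAT2, limma and mm10. How genes were counted (program, annotation, strand) is not given in the sources used here, so overlapping and antisense genes cannot be told apart, and rows that join several gene names were tested but not described singly.

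The counts were tested with edgeR 4.0.16 (R 4.3.3) by the quasi-likelihood test (robust), after filterByExpr, with TMM scaling, the tumour as a block and Benjamini-Hochberg adjustment over all tested genes; a gene was called at an adjusted p below 0.05. Each tumour is another animal, and both libraries of a tumour come from the same cells, so the libraries are paired by tumour. Deviations from the mean of each RNA source within a batch were correlated between the 2 libraries of a tumour. They gave 0.0255 for LR1, 0.162 for LR2 and 0.108 for LR3. In batch 1 the deviations of T4 and T22 mirror each other, so both share 1 value, 0.380. Batches were compared in 1 fit with a polysome term for each batch. DESeq2 1.42.0 and limma 3.58.1 (voom), other scalings and filters, thinned counts and fits without a tumour were alternatives. CPM are TMM-scaled, and differences within a tumour use a prior count of 1. The SE beside a fold was derived from the test, as the absolute fold divided by the square root of its quasi-likelihood F statistic. Counts were simulated with changes of 2 or 3 on the log2 scale in 100 genes each, drawn from those averaging 10 CPM or more. The test across 5 tumours recovered 68% of changes of 2 and 95% of changes of 3 (10929 genes tested). The batch difference recovered 7% and 45% (10968 genes tested). The simulation held no other difference in level between tumours, and recovery for genes of lower level was not simulated. GC content and lengths come from GENCODE M21, starts and coordinates from RefSeq (GRCm38.p6), and coordinates in the text are of that build.

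Named genes are in each direction the 12 called genes of largest fold that averaged 10 CPM or more and moved 1 way in all 5 tumours, the 10 in each direction with the largest batch difference, the 5 in each direction with the lowest p where no size difference passed, up to 4 members of lowest p in each of 54 gene lists, and a panel of phenotype genes. The text names part of these. Members and lists were chosen with earlier results of these data known.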

Additional observations from a re-analysis of the deposited data

Results flagged for a closer look

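In 3 of 117 genes checked, 1 tumour stood apart from the other 4 by Dixon's criterion on polysome minus total log2 CPM, where chance flags about 1 in 20 groups. For Acta1 it was LR2, at −0.064, with nearly equal levels in both libraries. For Lars2 it was LR1, at 10.21, with the lowest total mRNA level. For Pros1, protein S, it was LR2, at −5.62.

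The fold differed between batches, by the test of the difference itself, for Rpl22l1 (5.69), Rpl39 (5.61), Rpl41 (5.00), Rps7 (4.55), Rps15a (4.44), Rps24 (4.34), Rps20 (4.34), Rpl37a (4.31), Rpl35a (4.14), Rps27l (4.06), Tmsb4x (3.84), Tmem167 (3.65), Vma21 (3.57) and Sec61g (3.27), given as batch 2 minus batch 1 on the log2 scale. The edgeR adjusted p of these genes ran from 0.0137 to 0.0494, and none of the differences was called without T4 or without T22.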

How the results depend on the processing

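With all 5 tumours 1217 genes were higher and 1586 lower in polysomes. DESeq2 called 2004 higher, batch 2 alone 548 higher and 547 lower, and all 26 libraries in 1 fit 2398 lower. Leaving out each tumour gave 585 to 1363 higher and 817 to 1578 lower. Among the 16 alternatives, which reuse these libraries in whole or in part, 0 of the genes called changed sign. The batch difference, 25 higher and 0 lower, was 361 and 154 by DESeq2, 60 and 1 by voom, 190 and 37 without a filter on low counts, 75 and 1 at a mean of at least 10 CPM, and 14 higher with RLE scaling. Leaving out each tumour gave 0 to 193 higher and 0 to 37 lower. The difference between large and small tumours, 0 and 0, was 76 and 53 by DESeq2 and 8 higher without a filter, and 0 in each fit without 1 tumour. The cause of these shifts was not tested.

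Without the replicate block that pairs the libraries of a tumour, 2888 genes were called, 2569 of them shared, and the batch difference fell to 3 higher genes.

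Leaving out each tumour moved the difference in share of counts to 0.672 to 2.37 percentage points for ribosomal proteins, 0.249 to 0.480 for other respiratory complexes, 0.343 to 0.422 for histone genes, −0.489 to −0.406 for chaperones and −0.927 to −0.772 for cathepsins.

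With the trend on GC content and coding length removed, an alternative chosen after seeing the data, the median fold changed sign for mitochondrial ribosomal proteins (−0.082), complex I (−0.066), splicing factors (0.094), ubiquitin-specific proteases (0.25), STAT factors and SOCS (0.28), Toll-like receptors (0.27), lipid genes (−0.10) and monocyte markers (0.15). For antioxidant and selenoprotein genes this check is void, since 75% of the members have values. With 5 tumours, and 2 in batch 1, large differences between batches could also be missed, so a difference that was not called is not shown to be absent. The simulated batch difference was found for 7% of genes changed by 2 on the log2 scale and for 45% of those changed by 3. All of these genes averaged 10 CPM or more.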
